A study of Mus musculus with 8 samples.

Results

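The regions described here carried the transcription factor ZFP281 in spheres grown from primary mammary tumours (PT) and were not listed in spheres grown from early lesions (EL). A PT-only region was a merged cluster of ZFP281 binding summits, each at most 200 bp from the next, with a summit in at least 2 of the 3 PT libraries and in none of the 3 EL libraries. Of 19317 merged regions on chromosomes 1 to 19, X and Y, 411 met this rule, which is 2.13% of all regions. The regions were therefore selected on the summit lists themselves, and their presence in PT and absence from EL is a description with no test.

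PT spheres came from FvB mice over 20 weeks of age with tumours, and EL spheres from FvB mice of 14 to 18 weeks with no palpable tumour. Both groups carried the MMTV-HER2/Neu transgene, in which a mammary tumour virus promoter drives the oncogenic receptor mainly in mammary epithelium, and cells of both were grown for 7 days without attachment in mammosphere medium. Chromatin immunoprecipitation of ZFP281 gave 3 libraries per group, which the labels call biological replicates, and the input of each group was not analysed here. The tissue label is breast tumor for PT and mammary lung for EL, both are labelled breast cancer cells, and binding summits alone cannot check a cell type. The PT lists held 2897, 4030 and 6033 summits in replicates 1, 2 and 3, and the EL lists 8588, 15770 and 7055, while the number of reads behind each list is unknown. The labels do not say how many animals a culture came from, so the spread between libraries may be in part technical.

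ZFP281 is a zinc finger protein that recognises G-rich DNA and is best known from pluripotent stem cells, where it takes part in keeping or leaving the undifferentiated state. Chromatin immunoprecipitation recovers DNA bound by the factor or by complexes that hold it, and a summit is the position of highest enrichment within a called peak. A summit near a gene shows binding there and not that the gene is regulated. HER2/Neu, also called ERBB2, signals as a partner of other ERBB receptors, and the normal mammary epithelium is built of luminal cells, which include milk-producing and hormone-sensing cells, and basal cells.

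Sequence could be shown for regions that fell on an annotated transcription start. RefSeq promoter windows of assembly GRCm38.p6, the mm10 build, run from 250 bases before to 50 bases after a start. In all, 27 PT-only regions (6.57%) overlapped 29 of 32851 windows. Of the regions with at least 2 PT and at least 1 EL library, 22.1% overlapped a window. The share was 8.50% for regions with at least 2 EL and no PT library. In 7 of the 29 windows the 250 bases before the start lay outside every RefSeq gene, and 4 of these are shown 5′ to 3′ as the strand that is transcribed, to show the span of base composition at PT-only binding sites. Capitals mark GGGGAGGG, or its reverse complement, a run of letters chosen here to stand for a G-rich site. Vamp8, a vesicle fusion protein, is at chr6:72390668-72390917 on the minus strand, with PT summits from 53 bases before to 13 bases after the start. Gm14133, an RNA gene in RefSeq with no role given here, is at chr2:149798821-149799070 on the minus strand, with PT summits from 17 bases before to 18 bases after the start. Zbtb2, a zinc finger transcription factor, is at chr10:4388109-4388358 on the minus strand, with its summits from 49 bases before to 150 bases after the start. Sowahb is at chr5:93045023-93045272 on the minus strand, with its summits 193 and 130 bases before the start.
Vamp8: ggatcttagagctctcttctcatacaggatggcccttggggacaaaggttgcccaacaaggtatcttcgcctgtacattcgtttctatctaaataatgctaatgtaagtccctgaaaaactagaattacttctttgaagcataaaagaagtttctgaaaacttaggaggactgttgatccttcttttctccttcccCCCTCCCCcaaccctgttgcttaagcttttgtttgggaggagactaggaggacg
Gm14133: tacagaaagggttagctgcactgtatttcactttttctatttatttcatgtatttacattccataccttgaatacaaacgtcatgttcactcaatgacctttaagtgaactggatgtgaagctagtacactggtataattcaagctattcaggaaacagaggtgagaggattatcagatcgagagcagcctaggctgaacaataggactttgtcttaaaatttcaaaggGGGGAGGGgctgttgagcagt
Zbtb2: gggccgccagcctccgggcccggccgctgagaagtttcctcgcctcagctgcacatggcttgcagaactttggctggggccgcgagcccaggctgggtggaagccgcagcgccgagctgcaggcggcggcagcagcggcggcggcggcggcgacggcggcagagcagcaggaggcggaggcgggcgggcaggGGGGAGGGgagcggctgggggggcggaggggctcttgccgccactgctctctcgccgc
Sowahb: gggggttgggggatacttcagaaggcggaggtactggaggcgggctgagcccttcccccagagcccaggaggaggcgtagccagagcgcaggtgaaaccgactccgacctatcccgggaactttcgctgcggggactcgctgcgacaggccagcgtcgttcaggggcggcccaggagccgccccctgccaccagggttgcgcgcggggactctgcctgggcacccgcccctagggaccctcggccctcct

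These stretches differed widely in composition. G and C made up 43.6% of the Vamp8 stretch, 39.2% of Gm14133, 77.2% of Zbtb2 and 70.8% of Sowahb. The marked letters were present once in each of Vamp8, Gm14133 and Zbtb2, and absent from the printed part of Sowahb, which says only that these letters are not in that stretch. Over the 29 windows at PT-only regions, 12 (41.4%, 95% Wilson interval 25.5% to 59.3%) held the letters on either strand, against 10.8% of all promoter windows. Among windows at regions with at least 2 PT and at least 1 EL library the share was 54.4% of 851, and at regions with at least 2 EL and no PT library it was 35.1% of 422. Both shares lie inside the interval of the PT-only windows. Some of the 29 windows overlap each other or share a region, and the interval treats them as independent. The median G and C content of the windows was 61.3% at PT-only regions, 67.7% at the regions of both groups, 62.8% at EL-only regions and 52.7% over all windows. The windows of both groups were highest in both the letters and G and C content, and the part of base composition in these shares was not tested.

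The binding strength of these 4 sites ran from the weakest to the strongest parts of the lists. The score that the authors gave each summit, taken as a −log10 q-value, is given here as a percentile of the list of its library, where 100 is the strongest summit. The Vamp8 region, chr6:72390654-72390720, was at the 31.9th, 60.6th and 89.8th percentile in PT replicates 1, 2 and 3. The Gm14133 region, chr2:149798802-149798837, was at the 43.0th, 59.3rd and 90.8th percentile. The Sowahb region was at the 60.9th and 53.9th percentile in PT replicates 2 and 3, and the Zbtb2 region at the 2.80th and 8.75th percentile in PT replicates 1 and 2. The Vamp8 and Zbtb2 regions had an EL summit close by, 414 bp away at the 93.2nd percentile and 616 bp away at the 99.5th percentile, both in EL regions of 3 libraries. The Gm14133 and Sowahb regions had their nearest EL summit 31478 bp and 38671 bp away.

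Most PT-only regions were in 2 of the 3 PT libraries. All 3 libraries held 136 regions, replicates 2 and 3 shared a further 181 (44.0%), replicates 1 and 3 shared 61, and replicates 1 and 2 shared 33. PT replicate 1, the shortest list, was absent from the largest of the 3 pairs. Every region had exactly 1 summit in each library that held it, and the regions were narrow, with a median width of 57 bp and a largest width of 270 bp. PT-only regions made up 7.94%, 8.69% and 6.27% of the regions of PT replicates 1, 2 and 3.

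They were weaker than the PT binding shared with early lesions. The median lowest PT percentile of a region was 27.5 over the 411 PT-only regions and 39.9 over the 3307 regions with at least 2 PT and at least 1 EL library. It was 33.5 for the 136 PT-only regions in all 3 libraries and 25.4 for the 275 in 2. Within the lists the median percentile of the PT-only summits was 37.0, 43.0 and 50.9 in PT replicates 1, 2 and 3, and 4, 8 and 9 of them reached the 90th percentile. Only 11 regions kept a lowest percentile of 75 or more, and 186 lay under 25.

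Each PT library in turn was set aside and searched for regions chosen by the remaining pair. Of the regions shared by 2 PT libraries and absent from every EL list, the PT library left out held 42.9% (136 of 317) for replicate 1, 69.0% (136 of 197) for replicate 2 and 80.5% (136 of 169) for replicate 3. For regions of the same PT pairs with at least 1 EL library the shares were 69.7%, 87.6% and 93.9%. The share was lower without EL in each of the 3 cases, which have libraries in common and were not tested. Early lesion absence also depended on which EL libraries were read. Of the regions in at least 2 PT libraries and in neither of the other 2 EL lists, EL replicate 1 held 14.2% (68 of 479), EL replicate 2 held 44.2% (325 of 736) and EL replicate 3 held 6.38% (28 of 439). EL replicate 2 has the longest list, and without it 731 regions met the rule, against 196 without PT replicate 2 and 170 without PT replicate 3. With lists of equal length 828 regions met the rule, 214 of them among the 411, and with scores of at least 10 it was 223, 97 of them among the 411.

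**Figure D1:**
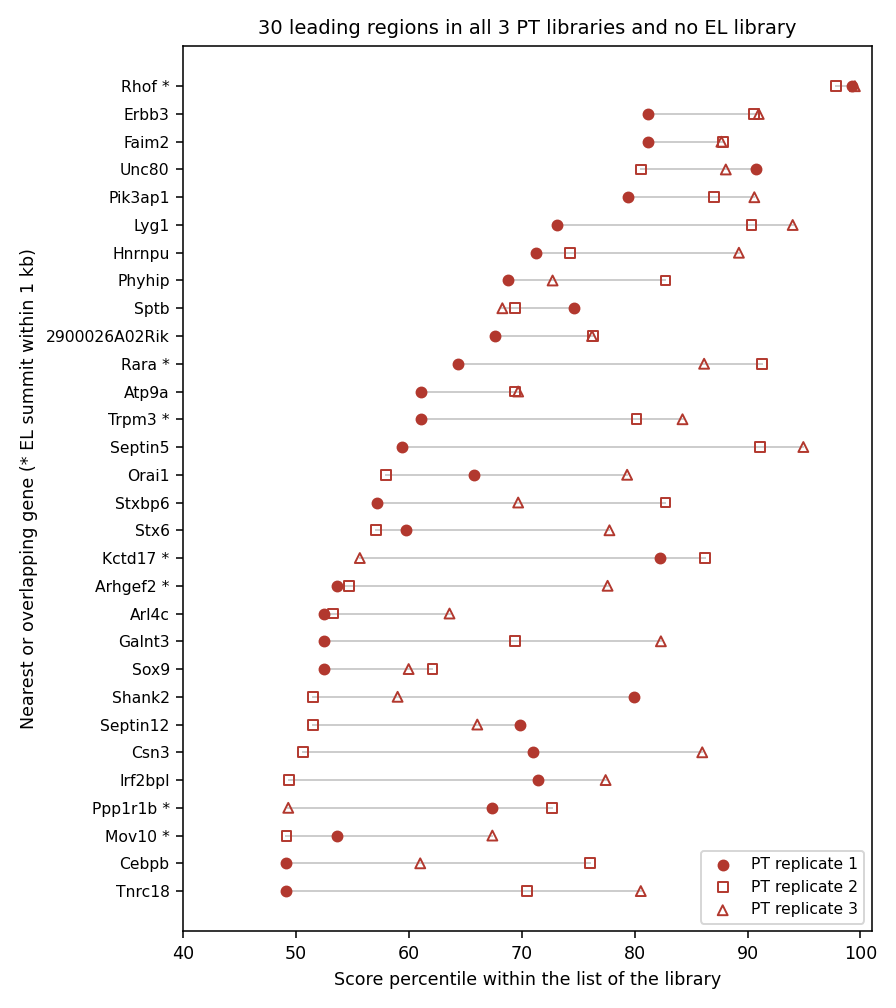
Score percentile of the summit in each PT library (x axis, 0 to 100 within a list, drawn from 40) for the 30 regions in all 3 PT libraries and no EL library with the highest lowest percentile, named by the gene that holds them or is nearest. Rhof stands at the top between 97.8 and 99.5 with an EL summit within 1 kb (asterisk), followed by Erbb3, Faim2 and Unc80 between 80.5 and 91.0 with none.

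Several of the strongest PT-only regions had strong early lesion binding close by. These 11 regions were singled out after their values were seen. Of the 11 regions with a lowest percentile of 75 or more, 6 (54.5%) had an EL summit within 1 kb, and these EL summits were in regions of all 3 EL libraries at the 90.8th to the 99.7th percentile, 335 to 896 bp away. In the bands of 50 to 75, 25 to 50 and under 25 the share with an EL summit within 1 kb was 11.5% (7 of 61), 10.5% (16 of 153) and 21.0% (39 of 186).

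The Rhof region is the clearest of these. Rhof encodes a small GTPase, and its region, chr5:123137802-123137837, lies inside the gene. The summit was at the 99.3rd, 97.8th and 99.5th percentile in PT replicates 1, 2 and 3, with scores of 84.6, 54.8 and 114. An EL summit lay 413 bp away at the 99.6th percentile of EL replicate 2, in a region of all 3 EL libraries and no PT library. Here strong binding was listed at 2 positions 413 bp apart, 1 in PT and 1 in EL, and summit lists cannot show whether the peaks under them overlap.

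Asxl1, Midn, Pura, Phf13 and Plxna1 were alike in this. The Asxl1 region, near a Polycomb-related gene, was at the 94.9th and 95.9th percentile in PT replicates 2 and 3 with an EL summit at the 99.2nd percentile 335 bp away. The Midn region was at the 91.9th and 97.1st percentile in PT replicates 1 and 3 with an EL summit at the 98.9th percentile 529 bp away. The Pura and Phf13 regions, in PT replicates 1 and 2, had lowest percentiles of 91.9 and 85.9 and EL summits 450 and 896 bp away. The Plxna1 region, inside the gene of a semaphorin receptor, was at the 77.2nd and 84.8th percentile in PT replicates 2 and 3 with an EL summit at the 98.4th percentile 408 bp away. For Midn and Plxna1, as for Rhof, the EL region held no PT summit.

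The other 5 of the 11 had no EL summit within 3 kb. They were Erbb3, Faim2, Unc80, Pik3ap1 and Irf2bp2. Erbb3 encodes the receptor that pairs with HER2/Neu. Its PT-only region, chr10:128584541-128584650, lies inside the gene, 4985 bp from the upper boundary (the one with the larger coordinate). The summit was at the 81.1st, 90.6th and 91.0th percentile in PT replicates 1, 2 and 3, with scores of 20.8, 28.2 and 34.7. The nearest EL summit was 5942 bp away, at the 19.3rd percentile of EL replicate 2, in a region of 2 EL and no PT libraries. The 3 PT values lie close together, and within 10 kb of the gene that EL region was the only other region of any kind.

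Faim2, whose protein inhibits death receptor signalling, held a region at chr15:99512214-99512254 with percentiles of 81.1, 87.8 and 87.7 in PT replicates 1, 2 and 3. Its nearest EL summit was 14155 bp away in a region of all 6 libraries. Unc80, a subunit of a sodium leak channel, held a region at chr1:66617622-66617658 with percentiles of 90.7, 80.5 and 88.1, and its nearest EL summit was 130527 bp away. Pik3ap1, an adaptor of phosphoinositide 3-kinase, held a region with percentiles of 79.4, 87.0 and 90.6, and the nearest EL summit, 17139 bp away, was at the 1.39th percentile of EL replicate 2. All 3 genes held their region inside the gene body, and all 3 PT libraries gave values in the upper part of their lists.

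Over all 411 regions the nearest EL summit lay a median of 16117 bp away, with quartiles of 3537.5 and 52564 bp. It was over 10 kb away for 245 regions (59.6%), of which 81 were in all 3 PT libraries. It was within 1 kb for 68 regions (16.5%), within 500 bp for 38 and within 300 bp for 20. Of the EL regions within 1 kb, 41 were in all 3 EL libraries and 35 in a PT library as well, and the median percentile of the EL summit was 72.2. For these 68 regions a PT-only call rests on summit positions that are near and not on an absence of EL binding from the neighbourhood.

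**Figure D2:**
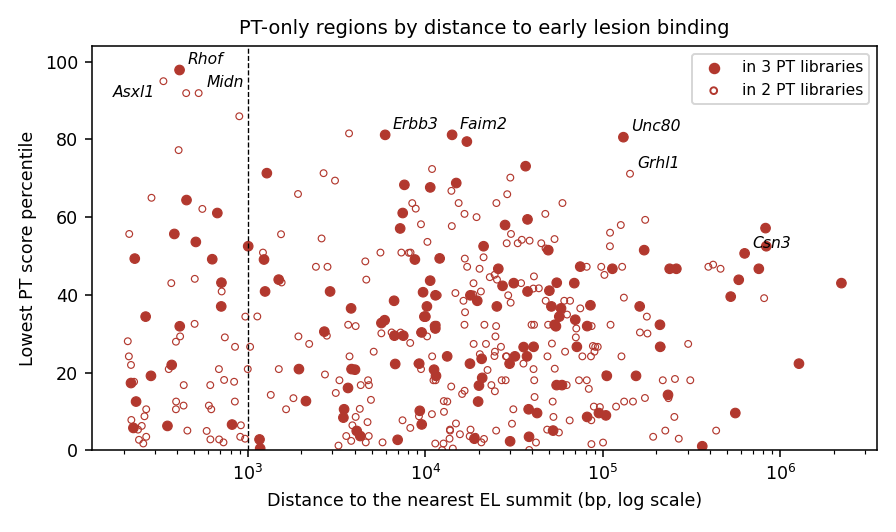
Lowest PT score percentile (y axis) of each of the 411 PT-only regions against its distance to the nearest EL summit (x axis, bp, log scale), filled for regions in 3 PT libraries and open for 2, with a dashed line at 1000 bp. Rhof, Asxl1 and Midn sit at the top left of the line, while Erbb3, Faim2, Unc80, Grhl1 and Csn3 lie to its right.

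The merging distance sets the edge of the rule. Just inside it, the PT-only regions of Nedd9, Wdr86 and Hspg2 had their nearest EL summit 211, 214 and 215 bp away. Just outside it, regions near Rps10, Pabpc1 and Rbpj in all 3 PT libraries were left out for 1 summit of EL replicate 2 at 189, 156 and 150 bp. The Pabpc1 region had PT percentiles of 76.5, 92.2 and 92.2. Such excluded regions, with 3 PT and 1 EL library, numbered 165, and the median distance from the EL to the nearest PT summit in them was 16 bp.

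A small share of PT-only regions lay at gene boundaries. Within 1 kb of a boundary of a protein-coding gene lay 12.7% of them (52 of 411, 95% Wilson interval 9.78% to 16.2%), against 42.8% of the regions with at least 2 PT and at least 1 EL library, 22.6% of the 4445 regions with at least 2 EL and no PT library, and 28.6% of all regions. Inside a gene beyond 1 kb lay 47.7% of PT-only regions, 35.1% of the regions of both groups and 45.6% of EL-only regions, and between genes 39.7%, 22.0% and 31.8%. Over 5 kb from every boundary lay 279 PT-only regions (67.9%), against 37.2% and 58.3%. The median distance to the nearest boundary was 11309 bp for PT-only regions, 1724 bp for regions of both groups and 8937 bp for EL-only regions. With lists of equal length the share of PT-only regions at a boundary was 22.0%, and with merging at 50 bp it was 23.5%. Both are near the 22.6% of EL-only regions in full lists. The shares of the other classes were not taken again under these settings, so a matched comparison is not given. Intervals cover counting error only.

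The share was also taken by PT library and by score band. In PT replicates 1, 2 and 3 the share at a boundary was 11.3%, 12.9% and 13.0% of the PT-only regions, against 43.4%, 40.7% and 39.8% of the other regions of the same library. Each PT-only region is counted in 2 or 3 of these libraries by the rule, so the 3 shares are not independent and were not tested. In bands of the lowest percentile under 25, 25 to 50, 50 to 75 and from 75, the share at a boundary was 12.9%, 11.1%, 14.8% and 18.2% for PT-only regions, 39.3%, 41.7%, 45.1% and 48.3% for regions of both groups, and 23.7%, 23.3%, 19.4% and 17.4% for EL-only regions. PT-only regions were below those of both groups in each of the 4 bands, and below EL-only regions in each band but the top one, which held 11 PT-only regions. Among the 343 PT-only regions with no EL summit within 1 kb, 10.2% were at a boundary and 72.3% over 5 kb from every boundary.

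**Figure D3:**
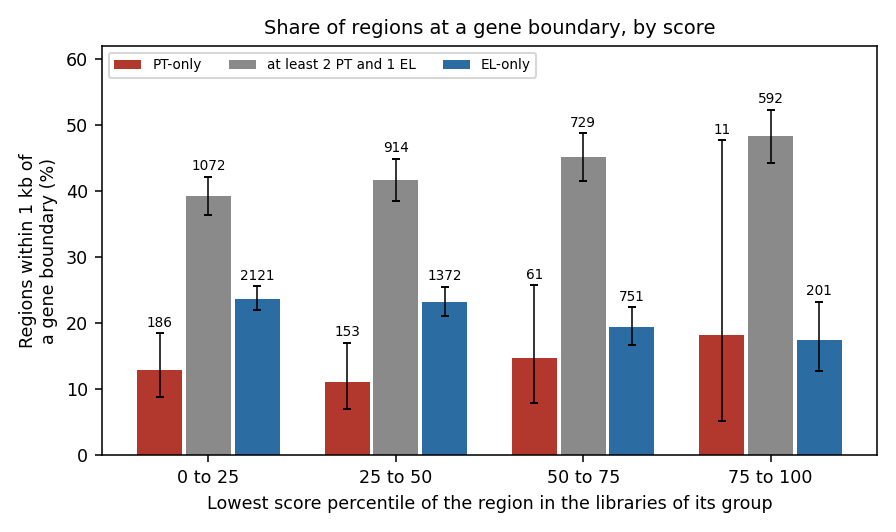
Share of regions within 1 kb of a gene boundary (y axis, %) by lowest score percentile in the libraries of their group (x axis; PT libraries for the first 2 classes, EL libraries for EL-only), with bars for PT-only, PT and EL and EL-only regions, 95% Wilson intervals and the number of regions above each bar. PT-only bars stay between 11.1% and 18.2% and the bars of both groups between 39.3% and 48.3%, while EL-only bars run from 23.7% in the lowest band to 17.4% in the top band.

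The surroundings of PT-only regions were compared through the other ZFP281 summits there. Leaving out the summits of the regions themselves, 3.11%, 2.85% and 2.78% of the summits of PT replicates 1, 2 and 3 lay within 10 kb of a PT-only region, against 2.19%, 1.66% and 2.25% in EL replicates 1, 2 and 3. Every PT value was above every EL value, and merging keeps the summits of both groups out of the regions themselves. The means were 2.91% ± 0.176 and 2.03% ± 0.325 (SD, n = 3 each), a difference of 0.879 percentage points, PT minus EL. The regions were chosen for PT summits and for the lack of EL summits in these same lists, so the direction is tied to the choice and no test is given. In lists of equal length, holding the strongest summits of each library, the values were 3.11%, 3.11% and 2.95% in PT and 2.83%, 2.76% and 2.97% in EL. Only the summits were cut here, and the PT-only regions stayed those chosen from the full lists. The groups then overlapped, with a difference of 0.204 percentage points. List length moved with this result.

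**Figure D4:**
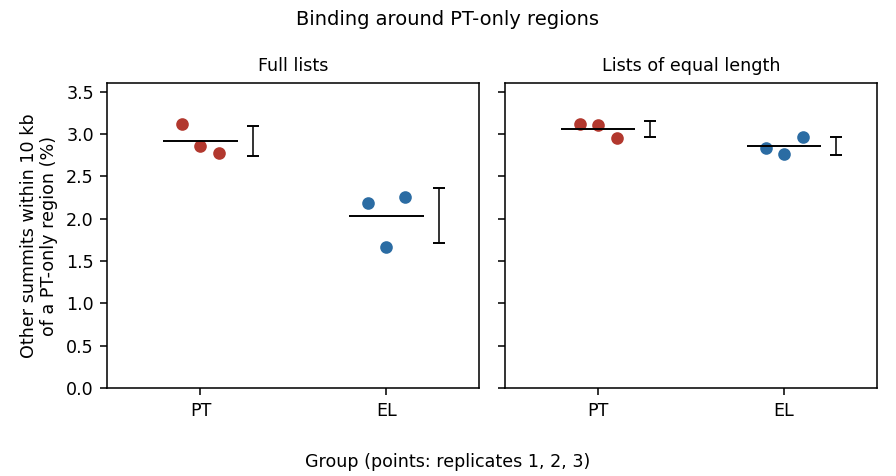
Share of summits, other than those of the PT-only regions, within 10 kb of a PT-only region (y axis, %) in the 3 PT and 3 EL libraries, for full lists (left) and lists of equal length (right), with points for replicates, a line for the mean and a bar for the SD. PT and EL points are apart in full lists, at 2.78% to 3.11% and 1.66% to 2.25%, and overlap at equal length. Both panels use the PT-only regions chosen from the full lists.

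PT-only regions were mostly single. Counting each region with the next one along the chromosome only, 23 pairs lay within 50 kb of each other, 11 within 10 kb and 7 within 5 kb. Bahcc1 and Shank2 had 3 each. In Bahcc1, a gene for a chromatin-associated protein, all 3 lay inside the gene over a stretch of chr11:120236463-120242812, and EL summits at the 81.1st to 83.8th percentile lay 285 to 2218 bp from them. Near and in Shank2, a synaptic scaffold gene, the regions lay at chr7:143957095-143957181, chr7:143978210-143978210 and chr7:144038975-144039054, with the nearest EL summit at least 170885 bp away from each. In Slc9a3r1, a scaffold of the apical membrane of epithelia, a pair of regions in all 3 PT libraries stood 2746 bp apart. In Sh3bp4, a pair stood 911 bp apart.

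No PT-only region lay on chromosome X. This count of 0 of 411 stands beside 1.42% (47 of 3307) of the regions of both groups and 1.78% (79 of 4445) of EL-only regions. Chromosome X held a small share of every class, and the difference was not tested. Of all summits, 1.24%, 1.19% and 1.56% were on X in PT replicates 1, 2 and 3, and 1.72%, 1.78% and 1.72% in EL replicates 1, 2 and 3. Chromosome 11 held the most PT-only regions, 42 (10.2%), beside 8.90% of all regions.

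Genes were joined to a region within 1 kb of a boundary, to a region inside the gene, or as the nearest gene. By this rule 396 of 21887 protein-coding genes (1.81%) had a PT-only region, 2877 (13.1%) a region of both groups and 3288 (15%) an EL-only region. With the nearest gene left out, 244 genes (1.11%) had a PT-only region. The genes with PT-only regions were not free of early lesion binding, since 214 of the 396 (54.0%) had a region of at least 2 EL libraries within 10 kb of the gene, against 29.2% of all protein-coding genes. Gene length and the distance between genes were not taken into account.

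Of the 16 gene lists, the mixed list of luminal and hormone receptor genes had the largest share of genes with a PT-only region. Of 30 luminal and hormone receptor genes, 8 (26.7%) had a PT-only region, against 1.81% of all protein-coding genes, and 6 (20.0%) had one within 1 kb or inside, against 1.11%. In the same list 10 genes (33.3%) had a region of both groups and 6 (20.0%) an EL-only region, against backgrounds of 13.1% and 15%. The 8 genes were Rara and Rarg, which encode retinoic acid receptors, Tfap2a and Tfap2c, which encode AP-2 factors, Grhl1 and Grhl2, which encode grainyhead factors of epithelia, Elf5, which encodes an ETS factor of luminal progenitor and milk-producing cells, and Kit, which encodes a receptor tyrosine kinase. The list had been written with earlier results of these data known, so its count is a description.

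The PT-only regions of this list differed in strength and surroundings. The Rara region, chr11:98955150-98955172, inside the gene, was at the 64.4th, 91.3rd and 86.2nd percentile in PT replicates 1, 2 and 3. It was 452 bp from an EL summit at the 86.6th percentile, and 12 regions of at least 2 EL libraries lay within 10 kb of the gene. Rara thus was bound at many places in early lesions. The Grhl1 region, chr12:24592419-24592507, inside the gene, was at the 71.1st and 73.3rd percentile in PT replicates 2 and 3, and its nearest EL summit was 142209 bp away. It was the only region of any library within 10 kb of Grhl1.

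Tfap2a held a region at chr13:40717132-40717154 at the 59.6th, 34.8th and 33.5th percentile in PT replicates 1, 2 and 3, with the nearest EL summit 5902 bp away, and a region near its boundary was in all 6 libraries. Tfap2c held a region in all 3 PT libraries at the 9.58th, 16.8th and 0.448th percentile, among the weakest of all. The other 4 genes are named after their values were seen. Elf5 held a region in PT replicates 2 and 3 at the 20.9th and 34.0th percentile. The 2 regions nearest to Grhl2 lay 5933 and 73286 bp from the gene. In PT replicates 2 and 3 the nearer was at the 0.0744th and 8.58th percentile and the farther at the 53.3rd and 55.6th. The region nearest to Kit, 172336 bp from it, was at the 45.3rd and 27.5th percentile in PT replicates 1 and 3. The Rarg region was at the 20.9th and 71.5th percentile in PT replicates 2 and 3. It lay inside the gene, 1000 bp from an EL summit. Of the 8 genes, 7 remained with merging at 500 bp, 5 at 1000 bp and 3 at 50 bp. With scores of at least 10, 2 remained, and with lists of equal length 4. Without PT replicate 2 it was 4 and without PT replicate 3 it was 3.

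Epithelial and milk genes had PT-only regions at 4 genes, against 1.81% of all protein-coding genes. The milk protein list had 1 of 15 genes (6.67%), Csn3, which encodes kappa-casein. The Csn3 region, chr5:87924810-87924876, 703 bp from the lower gene boundary, was at the 71.0th, 50.6th and 86.0th percentile in PT replicates 1, 2 and 3. No other region lay within 10 kb of Csn3, and the nearest EL summit was 628673 bp away. In the list of epithelial junctions and keratins, 3 of 35 genes (8.57%) had a PT-only region, 15 (42.9%) a region of both groups and 2 (5.71%) an EL-only region. Cgn, which encodes cingulin of tight junctions, held its region at the 52.5th, 24.2nd and 50.9th percentile, 37385 bp from an EL summit. Kdf1, which encodes a factor of keratinocyte differentiation, had percentiles of 68.2, 18.6 and 69.2 and an EL summit 20914 bp away. The region at Jup, which encodes plakoglobin, was in PT replicates 2 and 3 at the 55.6th and 74.95th percentile, 1540 bp from an EL summit.

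Among 42 ERBB and MAPK genes, 3 (7.14%) had a PT-only region, 18 (42.9%) a region of both groups and 17 (40.5%) an EL-only region. Over all protein-coding genes the shares were 1.81%, 13.1% and 15%, so the list was above the background in all 3 classes. Beside Erbb3 these were Hbegf and Tgfa, ligands of the epidermal growth factor receptor. The Hbegf region was 11710 bp from the gene, at the 17.3rd, 56.1st and 36.6th percentile in PT replicates 1, 2 and 3, and only 220 bp from an EL summit. The Tgfa region was 25807 bp from the gene, at the 20.9th and 18.0th percentile in PT replicates 2 and 3. Erbb3 alone of the 3 had its region inside the gene and in the upper part of the lists.

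Genes of mesenchymal cells had more EL-only than PT-only regions, as all protein-coding genes did. Of 30 genes of epithelial-mesenchymal transition, 1 (3.33%) had a PT-only region and 24 (80.0%) an EL-only region, against 1.81% and 15% of all protein-coding genes. That gene was Sox9, a transcription factor of progenitor cells. Its region, chr11:112712988-112713030, lay 69180 bp from the gene at the 52.5th, 62.1st and 60.0th percentile in PT replicates 1, 2 and 3, and 1006 bp from an EL summit. Of 32 TGF-beta and BMP genes, 3 (9.38%) had a PT-only region and 19 (59.4%) an EL-only region. They were Smad6, an inhibitory Smad, Skil, a repressor of Smad signalling with 2 regions within 848 bp of EL summits, and Id2, an inhibitor of helix-loop-helix factors. The Smad6 and Id2 regions lay 96542 and 154946 bp from the gene. With the nearest gene left out, 1 of the 32 genes (3.1%) had a PT-only region, against 1.11% of all protein-coding genes. Of 36 Wnt genes, Wnt5b and Fzd1 had a PT-only region, a ligand and a receptor, and 14 had an EL-only region. The Fzd1 region lay 64682 bp from the gene, and that of Wnt5b inside the gene. The Wnt5b region was at the 46.7th, 39.9th and 45.1st percentile, and the nearest EL summit was 17946 bp away.

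Calcium entry and nuclear receptor genes made up the rest. Orai1, the pore of store-operated calcium entry at the plasma membrane, was 1 of 17 calcium transport genes with a PT-only region. The region, chr5:123029898-123029975, 477 bp from the upper gene boundary, was at the 65.8th, 57.9th and 79.3rd percentile in PT replicates 1, 2 and 3, and the nearest EL summit was 28129 bp away at the 7.15th percentile of EL replicate 2. Among the other nuclear receptor genes, Ppara, which encodes a receptor for fatty acids, and Thra, which encodes a thyroid hormone receptor, had a PT-only region. The Ppara region was 688 bp and the Thra region 457 bp from an EL summit. The Ppara region lay 32222 bp from the gene, and that of Thra inside the gene. No gene of the lists for Notch and Hippo (22 genes) or chromatin regulators (26 genes) had one. At the share of all protein-coding genes these lists would hold 0.398 and 0.471 such genes, so a count of 0 is close to the background.

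PT-only regions were next counted at marker genes of other cell types. None of 12 basal and myoepithelial and none of 15 endothelial genes had one, where the share of all protein-coding genes would give 0.217 and 0.272. Cebpa, of 20 fibroblast and adipocyte genes, Ptprc, of 20 leukocyte genes, and Foxj1, of 15 lung epithelial genes, had one each (5%, 5% and 6.67%, against 1.81% of all protein-coding genes). The Cebpa region was 5952 bp and the Ptprc region 311124 bp from the gene. The Foxj1 region was 3534 bp from its gene, at the 63.6th and 65.7th percentile in PT replicates 2 and 3. For EL-only regions the share of all protein-coding genes was 15%. With an EL-only region the same lists had 4 basal (33.3%), 2 endothelial (13.3%), 10 fibroblast and adipocyte (50%), 2 leukocyte (10%) and 0 lung genes. The endothelial, leukocyte and lung lists were thus below that share, and the basal and the fibroblast and adipocyte lists above it. These counts are of binding and not of expression, and their part in the PT-only regions was not tested. Across the lists, 12 of the 16 had at least 1 gene with a PT-only region.

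**Figure D5:**
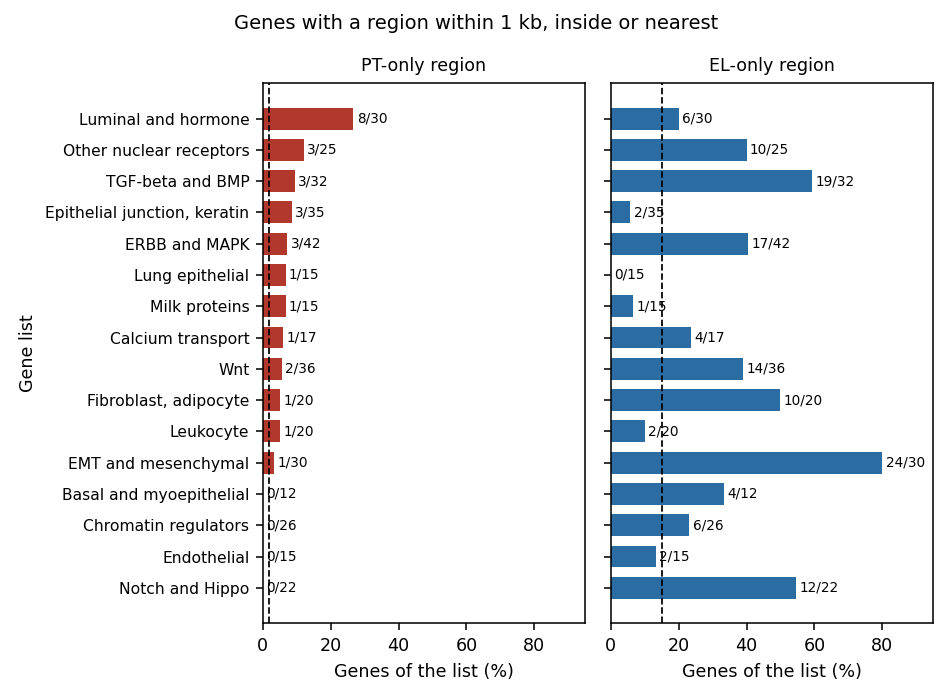
Share of the genes of each list (x axis, %) with a PT-only region (left) and with an EL-only region (right), with the number of genes beside each bar and a dashed line at the share of all protein-coding genes, 1.81% and 15%. Luminal and hormone genes lead on the left with 8 of 30 and genes of epithelial-mesenchymal transition on the right with 24 of 30.

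Regions at gene boundaries in all 3 PT libraries lay at genes of varied roles. Hnrnpu, which encodes a nuclear RNA-binding protein, had the strongest, chr1:178337857-178337891, at the 71.3rd, 74.3rd and 89.2nd percentile in PT replicates 1, 2 and 3. An EL summit at the 99.5th percentile lay 1281 bp away in a region of all 6 libraries. Stx6, a membrane fusion protein of the Golgi, had percentiles of 59.8, 57.1 and 77.8 and an EL summit 7219 bp away. Mov10, an RNA helicase, had percentiles of 53.6, 49.1 and 67.4 and an EL summit 631 bp away in a region of all 6 libraries. Gm33887, Osbp2, Igsf9 and Epb41l1 had lowest percentiles from 23.5 to 37.0 and EL summits from 13279 to 51304 bp away. With Vamp8, Orai1 and Csn3 these make up the 10 leading regions at a boundary, and 2 of the 10, Vamp8 and Mov10, had an EL summit within 1 kb.

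Inside genes and over 5 kb from every boundary, 8 further leading regions had lowest percentiles from 46.7 to 67.6 beside those of Faim2 and Unc80. They lay in 2900026A02Rik, Rara, Atp9a, Arhgef2, Galnt3, Entpd6, Rtn1 and Ptprn2. The region in Galnt3, which encodes an enzyme of mucin-type glycosylation, was at the 52.5th, 69.4th and 82.3rd percentile in PT replicates 1, 2 and 3, and its nearest EL summit was 832374 bp away. The region in Arhgef2, which encodes an activator of small GTPases, was 510 bp from an EL summit at the 79.7th percentile. It lay over 5 kb from both outer boundaries of the gene but 13 to 29 bases before an annotated start within it. Between genes, the 6 leading regions were nearest to Trpm3, Septin5, Stxbp6, Sox9, Arl4c and Shank2. The region 19482 bp from Septin5 was at the 59.4th, 91.1st and 94.9th percentile, 37633 bp from the nearest EL summit. The region nearest to Trpm3, a cation channel gene, was 674 bp from an EL summit at the 96.1st percentile.

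Of the 411 PT-only regions, 4 had a microRNA hairpin within 5 kb, with 5 hairpins in all. The same count was not taken over all regions, so it is not read as low or high. Mature sequences are shown for the hairpin beside the Erbb3 region and for the let-7 pair, from RefSeq of the same build, with the seed (bases 2 to 8) in capitals. Mir6917 is at chr10:128584437-128584497 on the minus strand, 44 bp from the Erbb3 region and inside that gene. Mirlet7c-2 and Mirlet7b are at chr15:85706603-85706697 and chr15:85707319-85707403 on the plus strand, 3915 and 4631 bp from the region nearest to Ppara. The let-7 family is known from differentiated cells, where it represses genes of proliferation.
mmu-miR-6917-3p: gUCACUUCucuucccaccacag
mmu-let-7c-5p: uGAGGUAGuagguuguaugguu
mmu-let-7b-5p: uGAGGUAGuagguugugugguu

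Both let-7 microRNAs carry the same seed, and miR-6917-3p has another. The region whose nearest protein-coding gene is Ppara, with the let-7 pair between them, is chr15:85702656-85702688. It was at the 29.5th and 20.9th percentile in PT replicates 1 and 2, and an EL summit lay 688 bp away. The Mir7239 hairpin overlapped a region nearest to Nipal4 at the 27.4th and 21.0th percentile in PT replicates 2 and 3. Mir6911 lay 3868 bp from a region in Dazap1 at the 40.9th and 80.5th percentile in PT replicates 1 and 2. Only the region beside Mir6917 was in all 3 PT libraries.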

How the data were processed

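ZFP281 binding was analysed from 6 lists, 3 PT and 3 EL, that the authors deposited as 1 list of summits per library. A summit is given as 1 bp and a score. No label names the deposited score, and it was taken as a −log10 q-value because no list has one below 1.30, the value of q = 0.05. Bowtie2 2.3.4.3, Picard and the mm10 build are named in the submitters' processing notes. Which peak caller was run, and whether it used the inputs, is not given in the sources used here. Read depth is unknown.

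Summits at most 200 bp apart were merged, scores were turned into percentiles within a list, and genes, promoter windows and microRNAs came from RefSeq tables of GRCm38.p6. That gene table has no strand, so both boundaries of a gene were used. No genome was used, so sequence away from promoters is not shown. An exact permutation test over libraries was planned for the summits around the regions. It is not given, since the regions were chosen from the same lists. Python 3.11.15, numpy 2.4.6, pandas 2.3.3 and scipy 1.17.1 were used. Merging, sorting into classes and distances to genes were tried on simulated positions. The planted regions lay far apart, so PT and EL regions close to each other were not covered, and the other steps were not tried.

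The members and the 16 gene lists (388 symbols, all found) were chosen with earlier results of these data known. Named genes were the leading regions in all 3 PT libraries by lowest percentile (10 at a boundary, 10 inside and 6 between genes), genes with at least 3 regions, up to 4 genes per list (some not reported here) and 3 regions on each side of the merging distance. Those named beyond this rule were Rhof, Asxl1, Midn, Pura, Phf13, Plxna1, Pik3ap1, Irf2bp2, Slc9a3r1, Sh3bp4, the other luminal genes, and those with a printed promoter or a microRNA hairpin. Alternatives were other merging distances, stricter scores, lists of equal length, each library left out and a replicate block.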

Additional observations from a re-analysis of the deposited data

How the results depend on the processing

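The number of PT-only regions, 411, was 223 with scores of at least 10, 828 with lists of equal length and 136 when all 3 PT libraries were required, and from 170 to 731 with 1 library left out. The share within 1 kb of a gene boundary, 12.7%, was 23.5% with merging at 50 bp and 22.0% with lists of equal length. The share over 5 kb from every boundary, 67.9%, was 54.9%, 56.2% and 72.4% with merging at 50 bp, lists of equal length and merging at 1000 bp. The median lowest PT percentile, 27.5, was 38.5 and 63.6 with scores of at least 5 and 10, which drop weak summits by construction, and 43.0 with lists of equal length. The number of luminal and hormone receptor genes with a PT-only region, 8, was 3 with merging at 50 bp and 5 with merging at 1000 bp. It was 2 with scores of at least 10, 3 with all 3 PT libraries required, and from 3 to 10 with 1 library left out. Apart from those that follow from stricter rules, the cause of these moves was not tested. The share found in the PT library left out averaged 64.1%, and 83.7% for regions also in EL. The PT minus EL difference in summits within 10 kb ran from 0.204 percentage points at equal length to 1.35 within 50 kb. With 1 library left out it was 0.692 to 0.989. At equal length and with 1 library left out, the PT-only regions for this difference stayed those of the full lists.

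Equal replicate numbers are not said to share an animal. The mean percentile of its group was taken from each library at each region, with PT-only regions left out. The deviations that remained had correlations of -0.054, 0.0036 and -0.022 between same-numbered PT and EL libraries. These values describe the deviations and not the binding that the libraries share. A replicate block leaves the difference at 0.879 percentage points by arithmetic, so it is no check of that value. No p is given, since the regions were chosen from the same lists. Of the 411 regions, 260 were kept with merging at 50 bp, 341 at 1000 bp, 214 with lists of equal length and 97 with scores of at least 10. The alternatives on motif windows were not run, since they need a genome. The alternatives on gene lists and on regions with no EL summit within 1 kb were chosen after seeing the data. With no read depth, an EL summit missing from a list may mean weak binding as well as none.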
